A study of Mus musculus with 4 samples.

Results

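Serine and folate one-carbon enzymes were followed in polysome RNA of mouse ADSCs, taking the rows of the deposited FPKM table whose symbol is 1 of 10 listed genes. All 10 had a row among the 18200 genes of the table, and all 10 passed the filter of a mean of at least 1 FPKM over the 4 libraries, which left 8750 genes to test. Polysomes are messenger RNAs carrying several ribosomes. Of the 4 libraries, 2 are labelled scrambled and 2 are labelled IFIT1 knockdown, which the design text describes as an shRNA against Ifit1. Every library has the genotype label WT and the cell type ADSCs, which the series title places among mesenchymal stem cells. Replicate 1 of each group is in batch 1 and replicate 2 in batch 2. No total RNA is among the samples, so the amount of a messenger RNA and its share on polysomes cannot be told apart, nor can fewer cells of a type and less RNA per cell. Sc and Kd below stand for these labels as written. No source used here says that replicates came from separate cultures, so a p-value speaks for the spread of these libraries alone, and that spread may be technical. Neither the cell line, nor the vector, nor the number of clones is given in the sources used here.

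Proliferating cells make serine from the glycolytic intermediate phosphoglycerate in a short chain of reactions run by Phgdh, Psat1 and Psph. Serine hydroxymethyltransferases then split serine into glycine and a one-carbon unit bound to tetrahydrofolate. Parallel sets of folate enzymes in mitochondria and cytosol oxidise, reduce or release that unit, which ends up in purines, thymidylate and methyl groups. In mammalian cells the mitochondrial set usually runs toward formate, which leaves the organelle and is taken up by the cytosolic set. The transcription factor ATF4 is known to raise several of these genes when amino acids run short or mitochondria are stressed.

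In the libraries labelled Kd the chain was split: Phgdh and Shmt2 were higher, Psat1, Mthfd1, Mthfd1l, Mthfd2 and Aldh1l2 were lower, and Psph, Shmt1 and Tyms did not pass the test. The threshold was a Benjamini-Hochberg adjusted p of 0.05 in limma over all tested genes. That is 2 members higher and 5 lower of 10, where 27.4% of all tested genes were higher and 41.2% lower, 68.7% in all. The count of members called is therefore near the background, and it is the direction and size at each enzyme that the data describe. Counted without a test, the Kd libraries were both above the Sc libraries for 2 members and both below for 5, where this held for 30.1% and 44.4% of tested genes, 74.5% in all. After centring each library on its median, 3 members were higher and 4 lower. The median log2 change of the members was -0.295, against -0.02 over all tested genes. With the trend of change on gene length taken out these medians were -0.03 and -0.004, and without replicate 1 labelled Sc they were -0.17 and -0.17. Leaving out each library in turn gave member medians from -0.42 to -0.17. Together the 10 genes summed to 2429 and 2373 FPKM in the libraries labelled Sc and to 2381 and 2481 in those labelled Kd, so their summed level overlapped between the groups. All genes of the table summed to 598188 and 616504 against 701936 and 680137 FPKM. As a share of that total the members held 0.406% and 0.385% against 0.339% and 0.365%, which did not overlap, so the order of the groups depends on the scaling. The 4 mitochondrial members summed to 410 and 407 FPKM against 363 and 371, both lower in the libraries labelled Kd. The plot of levels by library shows their spread, from 2.67 FPKM for Aldh1l2 to 989 for Phgdh as means of the Sc group.

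**Figure D1:**
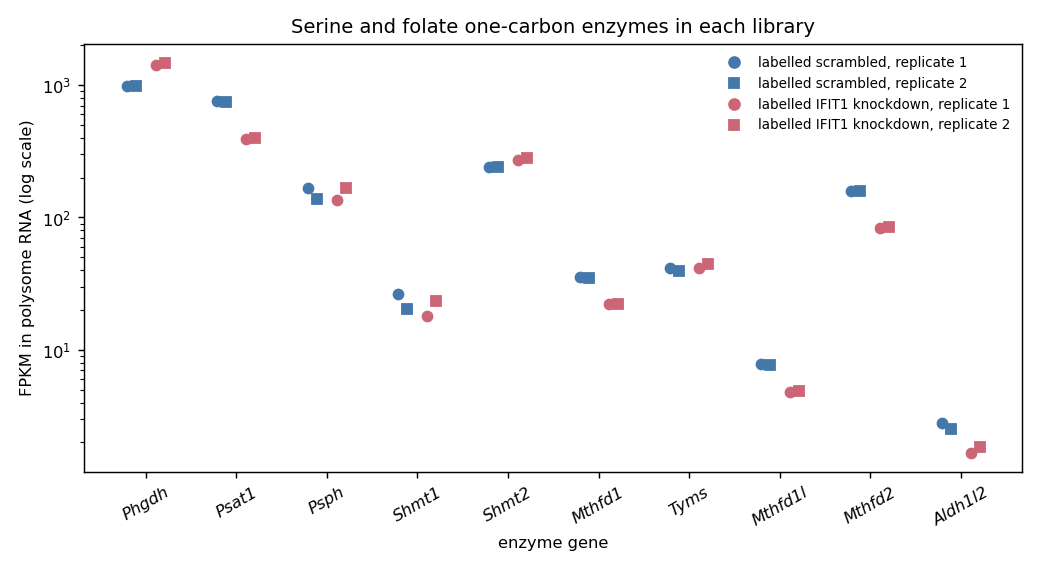
FPKM of each of the 10 enzyme genes (log axis) in every library, with blue for libraries labelled Sc, red for those labelled Kd, circles for replicate 1 and squares for replicate 2. Phgdh lies at 988 and 991 FPKM against 1409 and 1457, Psat1 at 761 and 742 against 393 and 396, and the replicates of Psph and Shmt1 are crossed between the groups.

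Facts of the series that touch every value come first. Ifit1, the gene named as the target, had 1.93 and 1.91 FPKM in the libraries labelled Sc and 13.9 and 14.8 in those labelled Kd (log2 2.39, SE 0.04, limma adjusted p = 1.6e-04). That goes against the label, so each direction below is that of the libraries labelled Kd against those labelled Sc. Whole fragment numbers could be recovered from the FPKM for 8748 of the tested genes. They summed over all recovered genes to between 30133564 and 36567371 a library. Of 1790 genes whose replicates differed by more than 0.2 on the log2 scale in both groups, 1790 had opposite signs in the groups and 0 had the same sign, although the labels put the same replicate numbers in the same batch. Over 8615 genes with at least 30 fragments in every library, the median difference between replicates was 0.547 counting SDs in the Sc and 0.676 in the Kd group, where counting alone gives 0.674. In the 2774 with 300 to 1000 fragments in the lowest library it was 0.417 and 0.439, below the counting value in both groups. Every p below rests on this spread between libraries of 1 label. Of 13 mesenchymal markers 9 were tested, with 6 higher and 3 lower (median log2 change 0.48). Thy1 had 3.71 and 3.68 against 31.0 and 30.3 FPKM, while Col1a1 and Col1a2 fell by 1.54 and 1.53 on the log2 scale. Summed, these markers came to 1249 and 1243 FPKM against 957 and 974, most of it Vim (means 1084 and 828). The mesenchymal markers Nt5e and Pdgfra stayed under 0.13 FPKM in every library, with Nt5e at 0 in replicate 1 labelled Kd. Endothelial genes, of which 1 of 7 was tested and rose (Egfl7), summed to 1.69 and 1.63 against 4.70 and 4.47 FPKM. Of 8 epithelial and mesothelial genes 4 were tested, with 2 higher and 1 lower, and the list summed to 168 and 164 against 98.9 and 99.7 FPKM, nearly all from Krt19. Krt8 had means of 0.279 and 2.55 FPKM and Krt18 of 0.470 and 2.89, higher in the libraries labelled Kd. Of 8 adipocyte genes 3 were tested, with 1 higher and 2 lower, and the list summed to 8.38 and 8.36 against 7.65 and 7.72 FPKM. Of 9 leukocyte genes 2 were tested, with 1 higher and 1 lower, and the list summed to 9.34 and 9.27 against 9.20 and 9.43 FPKM. Pecam1, Tek, Vwf, Epcam and Plin1 were at or near 0. Mostly nuclear noncoding RNAs summed to 1.99 and 2.07 FPKM against 1.09 and 1.05. The part of these marker differences in the results was not tested.

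**Figure D2:**
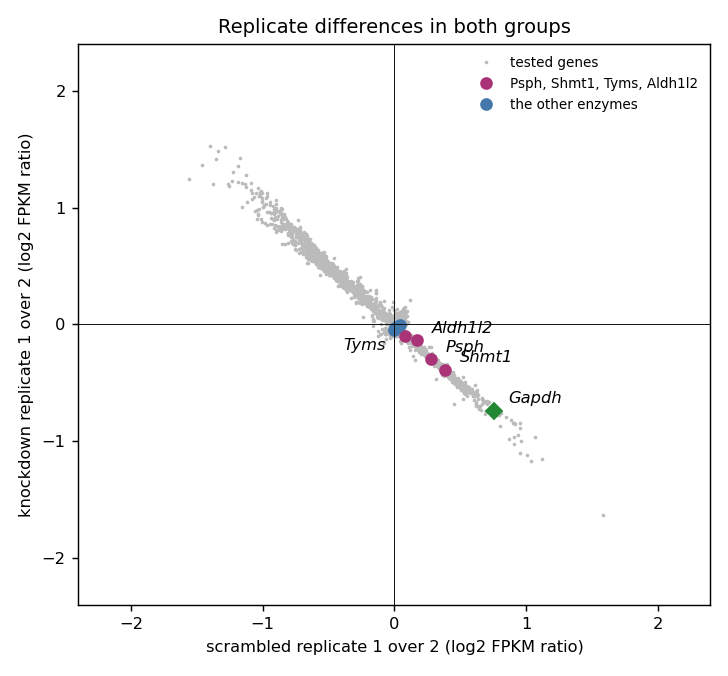
Log2 ratio of replicate 1 to replicate 2 in the Sc group (horizontal) and in the Kd group (vertical) for tested genes with at least 30 fragments in every library, in grey. Genes with large ratios lie along the falling diagonal, where Shmt1 (0.39 and -0.39), Psph (0.28 and -0.30) and Gapdh (0.75 and -0.74) sit, while Phgdh, Psat1, Shmt2 and Mthfd2 lie near the centre.

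The stretch before the start of a gene is shown for Phgdh and Psat1, neighbours in serine synthesis that changed in opposite directions, and for Shmt2 and Mthfd2, neighbours in mitochondria that did so too. Each is the 250 bases before the RefSeq start in GRCm38.p6, read 5′ to 3′ on the strand of the gene, which is minus for each, with CCAAT or its complement ATTGG in capitals. The CCAAT box is a common promoter element bound by the factor NF-Y. Phgdh is taken from chr3:98339970-98340219, Psat1 from chr19:15925060-15925309, Shmt2 from chr10:127522445-127522694 and Mthfd2 from chr6:83317605-83317854.
Phgdh: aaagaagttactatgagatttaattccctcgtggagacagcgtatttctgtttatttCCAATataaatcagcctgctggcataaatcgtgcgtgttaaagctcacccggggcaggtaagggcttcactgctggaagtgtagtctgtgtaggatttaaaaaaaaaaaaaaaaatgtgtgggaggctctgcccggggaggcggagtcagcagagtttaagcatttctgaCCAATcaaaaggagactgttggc
Psat1: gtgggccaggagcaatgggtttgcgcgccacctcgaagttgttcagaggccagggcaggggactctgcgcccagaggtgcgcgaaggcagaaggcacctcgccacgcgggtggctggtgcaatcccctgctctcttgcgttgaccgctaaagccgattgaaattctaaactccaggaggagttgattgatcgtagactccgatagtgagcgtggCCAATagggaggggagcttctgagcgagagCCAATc
Shmt2: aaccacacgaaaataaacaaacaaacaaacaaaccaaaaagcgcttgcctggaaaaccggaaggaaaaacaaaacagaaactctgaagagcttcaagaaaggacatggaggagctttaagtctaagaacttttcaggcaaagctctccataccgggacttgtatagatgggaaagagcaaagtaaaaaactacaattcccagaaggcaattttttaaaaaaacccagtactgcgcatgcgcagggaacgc
Mthfd2: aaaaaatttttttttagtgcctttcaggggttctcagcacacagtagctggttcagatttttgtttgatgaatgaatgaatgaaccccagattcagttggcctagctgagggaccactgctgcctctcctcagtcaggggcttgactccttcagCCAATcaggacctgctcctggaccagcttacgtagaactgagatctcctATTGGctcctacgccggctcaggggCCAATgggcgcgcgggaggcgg
RefSeq windows matched 9 of the 10 members, with 2 windows for Psat1, of which the upstream one is shown, and Aldh1l2 has none. CCAAT on either strand was present before 6 of these 9 genes and in 33.8% of 32851 windows of the same length. Mthfd2 held 3 copies, Phgdh, Psat1 and Psph 2 each, Shmt1 and Mthfd1 1 each, and Shmt2, Mthfd1l and Tyms 0. The box was thus before a gene that rose (Phgdh), genes that fell (Psat1, Mthfd2 and Mthfd1) and genes that did not pass. For Mthfd1 and Mthfd1l, bases after the RefSeq start were not found in a GENCODE transcript of the gene, unlike for the others. The place of these windows is therefore less sure. TGATGNAA, the core of the site bound by ATF4 with C/EBP factors, was in 3.45% of windows and in 0 of the members' windows. CACGTG, the E-box bound by Myc, was in 6.02% of windows and before 1 member, Tyms. GGGCGG, the GC box, was in 32.7% of windows and before 6 members. Both strands were read, both Psat1 windows were counted, no motif contains another, and a match is a description of letters only.

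Phgdh, which oxidises phosphoglycerate in the entry step of serine synthesis, was the most abundant member. It had 988 and 991 FPKM in the libraries labelled Sc and 1409 and 1457 in those labelled Kd, from 59491, 72496, 104028 and 98659 fragments. Both libraries labelled Kd were above both labelled Sc. The means were 989 ± 2.36 and 1433 ± 33.6 FPKM (SD, n = 2 each), 1.45-fold higher. The log2 change came to 0.53 with an SE of 0.03 (limma adjusted p = 4.3e-04). Batch 1 alone gave 0.51 and batch 2 gave 0.56. In level in the Sc group Phgdh exceeded 98.7% of tested genes, and its change exceeded that of 84.7%.

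Psat1, which transfers an amino group from glutamate to the product of Phgdh, moved the other way. It had 761 and 742 FPKM against 393 and 396, from 60999, 72304, 38571 and 35741 fragments. The groups were far apart, with means of 751 ± 12.9 and 394 ± 2.78 FPKM (SD, n = 2 each), 1.90-fold lower in the libraries labelled Kd. Its log2 change came to -0.93 with an SE of 0.02 (limma adjusted p = 1.6e-04). Batch 1 alone gave -0.95 and batch 2 gave -0.90. Only 5.73% of tested genes had a lower change.

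The ratio of Phgdh to Psat1, both per length, was 1.30 and 1.34 in the libraries labelled Sc and 3.59 and 3.67 in those labelled Kd. Its log2 difference was 1.46, and the groups did not overlap. An exact two-sided permutation test gave p = 0.333, the smallest that 2 libraries against 2 allow, here and for the ratios below.

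Psph, which removes the phosphate to give serine, had 167 and 138 FPKM in the libraries labelled Sc and 135 and 166 in those labelled Kd. Replicate 1 was the higher one in the Sc group and replicate 2 in the Kd group, so the groups overlapped. With 20856 to 23542 fragments a library, these differences came to 20.1 counting SDs in the Sc group and -21.8 in the Kd group. The log2 change of -0.02 (SE 0.17) did not pass (limma adjusted p = 0.99), and was -0.31 in batch 1 and 0.27 in batch 2. Across the labels, replicate 1 labelled Sc was 1.01 times replicate 2 labelled Kd, and replicate 2 labelled Sc was 1.02 times replicate 1 labelled Kd.

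**Figure D3:**
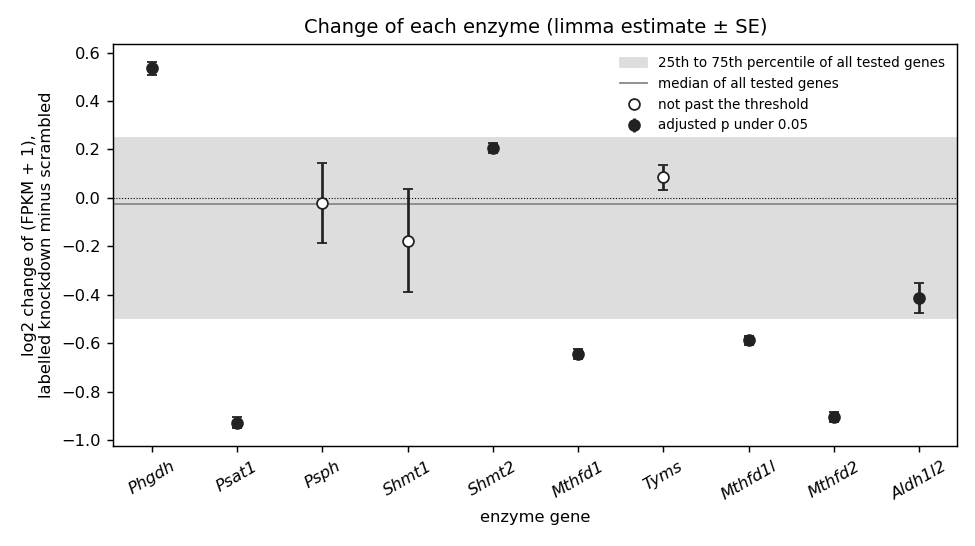
Log2 change of each enzyme (points, limma estimate, bars SE) in the libraries labelled Kd against those labelled Sc, with filled points past the threshold and the 25th to 75th percentile of all tested genes in grey. Psat1 (-0.93), Mthfd2 (-0.91), Mthfd1 (-0.64) and Mthfd1l (-0.59) lie below the grey band, Phgdh (0.53) lies above it, and Psph and Shmt1 carry the longest bars.

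Of the serine hydroxymethyltransferases, the mitochondrial Shmt2 was a little higher and the cytosolic Shmt1 did not pass. Shmt2 had 240 and 239 FPKM in the libraries labelled Sc and 273 and 280 in those labelled Kd. Both values labelled Kd lay above both labelled Sc. Means of 239 ± 0.940 and 276 ± 4.44 FPKM (SD, n = 2 each) made this 1.15-fold, or 0.21 on the log2 scale (SE 0.02, limma adjusted p = 0.0034). After quantile normalization the change was 0.08 and did not pass (limma adjusted p = 0.2), and after median-centring it was 0.38 and passed. The FPKM of all genes also summed higher in the libraries labelled Kd (701936 and 680137 against 598188 and 616504). As a share of that sum Shmt2 overlapped between the groups. Shmt1 had 26.6 and 20.4 FPKM against 17.9 and 23.4. Its groups overlapped, with the higher replicate again number 1 in the Sc and number 2 in the Kd group. Shmt1 had a log2 change of -0.18 (SE 0.21, limma adjusted p = 0.59). Its value was -0.55 within batch 1 and 0.19 within batch 2. Across the labels, replicate 1 labelled Sc was 1.14 times replicate 2 labelled Kd for Shmt1, and replicate 2 labelled Sc was 1.14 times replicate 1 labelled Kd. Shmt2 was 9.03 and 11.7 times Shmt1 in the libraries labelled Sc and 15.3 and 11.9 times in those labelled Kd, a log2 difference of 0.39 (exact permutation p = 0.333). The ratio did not overlap between groups, but 11.7 and 11.9 nearly met, and the Shmt1 values set its spread.

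All 3 mitochondrial folate enzymes among the members were lower in the libraries labelled Kd. Mthfd2l, a mitochondrial relative of Mthfd2 outside the members, was not, at 5.71 and 6.76 FPKM against 7.28 and 6.20. Its groups overlapped, and the log2 change of 0.10 did not pass (limma adjusted p = 0.59). Mthfd2, which oxidises the one-carbon unit carried by folate in mitochondria and is high in dividing cells, had 159 and 158 FPKM against 83.2 and 85.1. The groups were well separated, at means of 159 ± 0.317 and 84.1 ± 1.36 FPKM (SD, n = 2 each), a 1.89-fold drop. The log2 change came to -0.91 with an SE of 0.02 (limma adjusted p = 1.6e-04). Batch 1 alone gave -0.92 and batch 2 gave -0.89. Mthfd1l, which releases formate from folate in mitochondria, had 7.86 and 7.74 FPKM against 4.82 and 4.88. Neither value labelled Kd reached those labelled Sc. The log2 change of -0.59 (SE 0.02, limma adjusted p = 1.9e-04) came from 1137, 1359, 854 and 794 fragments, and was -0.31 with the length trend taken out.

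Aldh1l2, which oxidises the formyl unit of folate to carbon dioxide in mitochondria and yields NADPH, was the least abundant member. It had 2.82 and 2.51 FPKM against 1.67 and 1.83, from 839, 904, 607 and 612 fragments. The groups did not overlap, and replicate 1 was again the higher one in the Sc group and the lower one in the Kd group. The log2 change came to -0.41 with an SE of 0.06 (limma adjusted p = 0.01). Batch 1 alone gave -0.52 and batch 2 gave -0.31. This call was lost without replicate 1 labelled Kd (adjusted p = 0.076), without replicate 2 labelled Kd (0.053), after median-centring (-0.24, 0.051) and once the trend with gene length was taken out (-0.02, 0.83). At 9.86 kb, the gene length implied by the values was the longest of the 10, where the median of tested genes was 3.20 kb. Its cytosolic counterpart Aldh1l1 had 2, 1, 8 and 6 fragments, too few for a fold.

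Of the cytosolic folate enzymes, Mthfd1 was lower and Tyms did not pass. Mthfd1, which carries the cytosolic interconversions of folate one-carbon units and takes up formate, had 35.7 and 34.7 FPKM against 22.1 and 22.2. Its groups were apart at means of 35.2 ± 0.672 and 22.2 ± 0.0334 FPKM (SD, n = 2 each), 1.59-fold lower. The log2 change came to -0.64 with an SE of 0.02 (limma adjusted p = 2.1e-04). Batch 1 alone gave -0.66 and batch 2 gave -0.62. With the length trend taken out it was -0.39. Tyms, which uses folate to make thymidylate for DNA, had 41.7 and 39.5 FPKM against 41.7 and 44.6. These overlapped, and the log2 change of 0.08 (SE 0.05) did not pass (limma adjusted p = 0.27). Tyms passed after median-centring (0.26, adjusted p = 0.031) and once the length trend was taken out (0.42, adjusted p = 0.0058). Its implied length was 6.34 kb. Taken across the labels as for Psph, Tyms was 0.936 and 0.948 times as high in the libraries labelled Sc.

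Set against each other within a library, Mthfd1l and Mthfd1 kept nearly the same ratio and Mthfd2 and Mthfd1 did not. The ratio of Mthfd1l to Mthfd1 was 0.220 and 0.223 in the libraries labelled Sc and 0.218 and 0.220 in those labelled Kd, a log2 difference of -0.02 (exact permutation p = 0.333). Mthfd2 to Mthfd1 was 4.45 and 4.56 against 3.76 and 3.84, a log2 difference of -0.25 (exact permutation p = 0.333), so Mthfd2 was lower relative to Mthfd1. The order of levels was Phgdh, Psat1, Shmt2, Mthfd2, Psph, Tyms, Mthfd1, Shmt1, Mthfd1l and Aldh1l2 by the mean FPKM of the Sc group. In that group Mthfd2 and Psph were neighbours that did not differ beyond their spread, at 159 ± 0.317 and 153 ± 21.0 FPKM (SD, n = 2 each). In the Kd group Psph, at 150 ± 22.0, stood above Mthfd2, and Psat1 stayed second after Phgdh.

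**Figure D4:**
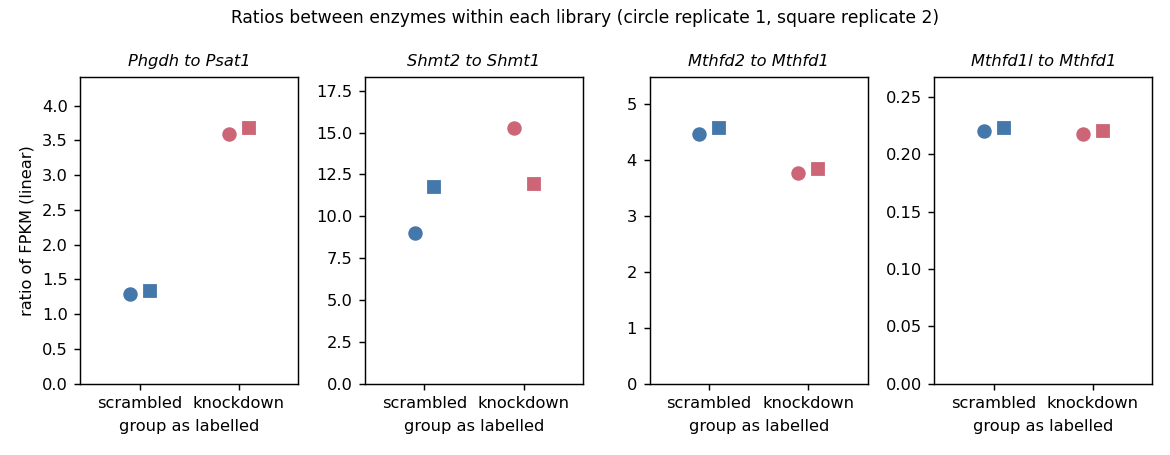
Ratio of FPKM between pairs of enzymes in each library (linear axes from 0), with circles for replicate 1 and squares for replicate 2. Phgdh to Psat1 goes from 1.30 and 1.34 to 3.59 and 3.67, Mthfd1l to Mthfd1 stays between 0.218 and 0.223, and Shmt2 to Shmt1 varies most between replicates.

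Other folate enzymes and carriers changed in part. Of 16 listed, 9 were tested, and 1 was higher, 4 lower and 4 not past, with a median log2 change of -0.01. After median-centring 3 were higher and 3 lower. The median of -0.01 was the value of Slc19a1, whose replicates were crossed between the groups (3.09 and 5.10 against 5.09 and 3.01 FPKM). Slc25a32, the mitochondrial folate carrier, fell by 0.45 on the log2 scale, and Mtrr, which reactivates methionine synthase, by 0.70. Mtfmt, which formylates the mitochondrial initiator tRNA, fell by 0.17. This call was lost after median-centring (0.0017, limma adjusted p = 0.97), after quantile normalization (-0.04, 0.46), without replicate 1 labelled Sc (-0.17, 0.051) and with the SE held at or above the counting error (-0.17, 0.051). Mthfs, which returns a stored folate form to the active pool, was the one that rose, from 1.22 and 1.24 to 3.45 and 3.67 FPKM. Of 9 glycine cleavage and methylglycine genes, 5 were tested, including Shmt1 and Shmt2, and 2 were higher and 1 lower. Sardh, sarcosine dehydrogenase, rose from 3.95 and 3.88 to 7.72 and 7.73 FPKM, and Dld, the shared dehydrogenase subunit, fell by 0.44 on the log2 scale. Gldc, the glycine decarboxylase, stayed under 0.014 FPKM.

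Serine and glycine transport had 9 tested of 11 listed, with 0 higher and 5 lower (median log2 change -0.40), or 2 higher and 5 lower after median-centring. Over all tested genes 27.4% were higher and 41.2% lower in the main fit, and no list was tested against these shares. Sfxn1, the mitochondrial serine carrier, had 20.2 and 19.9 FPKM against 9.69 and 9.84. The amino acid transporters Slc38a2 and Slc38a1 fell by 1.06 and 0.57 on the log2 scale, Slc1a4 by 0.40 and Sfxn2 by 0.51. Serine and glycine use had 12 tested of 20, with 3 higher and 6 lower (median -0.17). Gclm, Gclc and Gss, which build glutathione, fell by 1.15, 0.92 and 0.69 on the log2 scale. Synthases of phosphatidylserine split, with Ptdss1 at 3.73 and 3.81 against 1.96 and 2.04 FPKM and Ptdss2 at 1.71 and 1.62 against 4.47 and 4.16. The other genes that rose were Serinc1 (log2 0.50) and Gcat (0.29), which forms glycine in threonine breakdown.

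Purine synthesis genes and methionine cycle and polyamine genes were mostly lower, as lists of whole pathways rather than of enzymes that use one-carbon units. Of 13 purine synthesis genes, all 13 were tested, 1 was higher, 10 lower and 2 not past, with a median log2 change of -0.52. After median-centring 2 of them were higher and 9 lower. Gmps, which makes GMP, had 20.4 and 19.9 FPKM against 9.65 and 9.75, and Paics had 226 and 221 against 137 and 138. Prps1 and Ppat, at the head of the pathway, fell by 0.81 and 0.68 on the log2 scale. Adssl1, known as the muscle form of adenylosuccinate synthase, rose by 0.30 from 76, 93, 129 and 122 fragments. Its call was lost with the SE held at or above the counting error (limma adjusted p = 0.061). Of 16 methionine cycle and polyamine genes, 11 were tested, with 0 higher, 8 lower and 3 not past (median -0.62). Ahcyl1, a relative of adenosylhomocysteinase, had 104 and 104 FPKM against 47.8 and 48.7, and Mtap, which salvages methionine, fell by 0.81 on the log2 scale. Ahcyl2 fell by 0.78. Here 41.2% of all tested genes were lower, and nothing particular to these lists was tested.

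Pyrimidine and thymidylate supply, the setting of Tyms, went both ways. All 16 genes were tested, with 3 higher, 5 lower and 8 not past (median log2 change 0.02), or 7 higher and 5 lower after median-centring. Rrm2, a subunit of ribonucleotide reductase, had 109 and 108 FPKM against 41.9 and 42.7, and Ctps, CTP synthase, 71.9 and 71.3 against 37.0 and 37.7. Rrm1, Ctps2 and Cad fell by 0.85, 0.61 and 0.48 on the log2 scale. Dctpp1, which removes modified cytidine nucleotides, rose from 235 and 229 to 577 and 560 FPKM, Dtymk, which phosphorylates the product of Tyms, from 125 and 122 to 227 and 225, and Nme2 rose by 0.17 on the log2 scale. The Nme2 call was lost after quantile normalization (0.0082, limma adjusted p = 0.92), without either Sc library (0.054 and 0.055) and with the length trend taken out (-0.03, 0.74).

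Amino acid synthesis and ATF4 target genes had 19 tested of 21 listed, with 5 higher, 4 lower and 10 not past (median log2 change -0.02). That median was the value of a gene whose replicates were crossed between the groups. Atf5 rose by 0.85 on the log2 scale, Pycr1, of the last step of proline synthesis, by 0.69, Chac1 by 0.62 and Trib3 by 0.29. Gpt2, a mitochondrial transaminase, Aldh18a1, the entry to proline synthesis, Slc7a1 and Ddit4 fell by 0.90, 0.83, 0.62 and 0.43. Atf4 itself had 841 and 979 FPKM against 955 and 834, and its groups overlapped (log2 -0.02, limma adjusted p = 0.99). Its replicates differed in opposite directions, by -0.22 on the log2 scale in the Sc group and 0.19 in the Kd group (replicate 1 minus 2). In proline synthesis, as in serine synthesis, enzymes of the same chain were called in opposite directions.

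Glycolysis, which supplies phosphoglycerate, had 1 of 13 genes higher, 5 lower and 7 not past (median log2 change -0.03). The 7 not past were the genes whose replicates were crossed between the groups by more than 0.2 on the log2 scale. Pgk1 and Pgam1, the enzymes that make and use phosphoglycerate beside Phgdh, had 778 and 765 against 527 and 533 FPKM and 430 and 422 against 278 and 281. Pfkm, Pfkp and Hk2, early kinases of the pathway, fell by 0.90, 0.61 and 0.59 on the log2 scale. Aldoa, the one gene higher, rose from 3.28 and 2.94 to 4.93 and 6.08 FPKM, but not with batch as a block (limma adjusted p = 0.052) or without replicate 2 labelled Sc (0.069). Gapdh had 275 and 163 FPKM against 161 and 268 and did not pass. Proliferation genes had 15 tested of 16, with 2 higher, 7 lower and 6 not past (median -0.03). Here too the 6 not past were the crossed genes. The median of each of these lists was the value of a crossed gene, Gapdh for glycolysis and Top2a for proliferation. Tpx2, Aurkb, Mcm4 and Ccna2 fell by 1.45, 1.17, 1.07 and 1.02 on the log2 scale, while E2f1 rose by 1.33 and Pcna by 0.40. The Pcna call was lost with the length trend taken out (0.22, limma adjusted p = 0.065). Actb, often used as a reference gene, had 2838 and 2809 FPKM against 1809 and 1842.

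**Figure D5:**
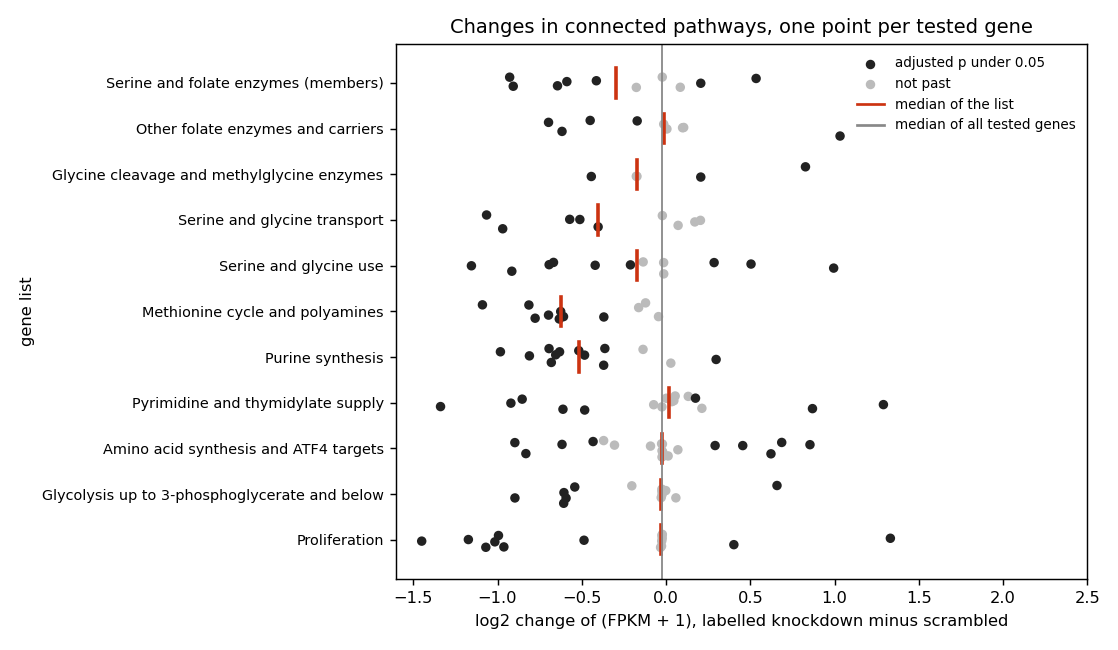
Log2 change of every tested gene in the enzyme set and in 10 connected lists (one point per gene, dark where the adjusted p is under 0.05), with list medians in red and the median of all tested genes as a grey line. Methionine cycle and purine synthesis genes gather at lower values (medians -0.62 and -0.52), while pyrimidine supply, glycolysis and proliferation have medians near that of all genes with points on both sides.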

How the data were processed

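Polysome RNA of 2 libraries labelled scrambled and 2 labelled IFIT1 knockdown was measured as FPKM (fragments per unit of transcript length and sequencing depth), computed by the authors and deposited in 1 table whose columns are named in the labels. Per the labels' protocols, libraries came from bead-captured messenger RNA that was broken up by heat. The submitters' processing notes list GRCm38, mm10 and GRCm39 without roles. The sources used here name no aligner, counter, annotation or strandedness, nor how reads of paralogs or overlapping genes were treated. The table has 0 other per-sample value columns.

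FPKM are whole fragments times a constant of library and gene. Relative depths of 1, 1.21, 1.23 and 1.12 were read from the ratios of low values, and the smallest whole fragments were solved for with a relative tolerance of 3e-08, up to 200000 for the lowest library. True numbers can be a multiple of these. Length is the fragment number over FPKM and depth. Counting errors cover counting only, since PCR copies are no independent molecules.

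Tested genes had a mean of at least 1 FPKM. They were fitted on log2(FPKM + 1), which understates changes of low genes, by lmFit and eBayes (trend) of limma 3.58.1 under R 4.3.3, two-sided. Benjamini-Hochberg adjustment ran over all 8750 of them, threshold 0.05. The method was tested on simulated data, with counts drawn independently for each library. These had no crossed replicates, so that run cannot show how the method behaves with them. The labels make the replicate number the batch. Over tested genes the replicate differences of both groups correlated at r = -0.83, and what gives this value was not tested. The fit has no batch term, and a batch block is an alternative. Others were a pseudocount of 0.1, no filter, median-centring, quantile normalization, counting error as the smallest standard error, removal of the length trend (lowess, span 0.3) and leaving out each library. The 10 members and the lists were chosen with earlier results of these data known. Named genes are the members, Ifit1, Actb, Gapdh, the 4 genes of each list with the smallest p, and list genes needed to spell out counts of 5 or fewer. Atf4 was added after its values were seen, as were the markers named. Some list genes that the rule would name are not reported here, though list counts hold them. List symbols without an entry numbered 20. Promoter windows are RefSeq's (GRCm38.p6). Tables were made with pandas 2.3.3 and numpy 2.4.6, figures with matplotlib 3.10.9, under Python 3.11.15.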

Additional observations from a re-analysis of the deposited data

How the results depend on the processing

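Of the 7 members past the threshold, Phgdh, Psat1, Mthfd1, Mthfd1l and Mthfd2 kept direction and call under every alternative named with the methods, though with the length trend taken out Mthfd1 moved from -0.64 to -0.39 and Mthfd1l from -0.59 to -0.31, while Shmt2 lost its call after quantile normalization and Aldh1l2 under the 4 settings given with it. With quantile normalization 1 member was higher, Phgdh, which moved from 0.53 to 0.36 (limma adjusted p = 0.025). After median-centring Phgdh was at 0.71. Under median-centring Psph turned to 0.15 and with the length trend taken out to 0.21. Leaving out each library moved Psph between -0.17 and 0.13 and Shmt1 between -0.36 and 0.0083, each above 0 without replicate 1 of either label (Psph 0.12 and 0.13, Shmt1 0.0083 and 0.0081). The genes higher numbered 2401 and those lower 3608, and 3819 were higher without the filter, where more genes were tested (18200). After median-centring, which moves the median of all genes from -0.02 to 0.15, the genes higher were 3 for other folate enzymes and carriers, 2 for serine and glycine transport, 2 for purine synthesis and 7 for pyrimidine supply. With the length trend taken out, these genes kept their calls at smaller sizes: Slc25a32 -0.11, Mtrr -0.42, Slc1a4 -0.17, Slc38a1 -0.18, Ahcyl2 -0.42, Ppat -0.44, Cad -0.11, Ctps2 -0.26, Slc7a1 -0.24 and Pfkp -0.33. For these moves other than the filter the cause was not tested.

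Leaving out each library in turn gave 2187 to 2283 genes higher and 3432 to 3460 lower, 2 members higher and 4 to 5 lower. The log2 ratio difference then ran from 0.20 to 0.58 for Shmt2 to Shmt1, from -0.26 to -0.23 for Mthfd2 to Mthfd1, from -0.03 to -0.0094 for Mthfd1l to Mthfd1 and from -3.36 to -2.25 for Aldh1l2 to Aldh1l1, the last resting on 1 to 8 fragments. With the batch block 2205 genes were higher and 3417 lower, with 2 members higher and 5 lower. The block changed the call of no member (Psph and Shmt1 at limma adjusted p = 0.99 and 0.71). It brought 2 calls near the threshold, Shmt2 from limma adjusted p = 0.0034 to 0.037 and Aldh1l2 from 0.010 to 0.045. Crossing the pairs, a setting added after the data were seen, gave 2962 higher and 4282 lower, with 3 and 6 members. With each SE held at or above its counting error the calls of all 10 members were as before. The 2 libraries a group and their crossed replicates limit what Psph, Shmt1 and Tyms can show.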

Other observations

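Of all tested genes 20.5% had replicates crossed between the groups by more than 0.2 on the log2 scale. Of these 1790 genes 20 passed the test. The 25th to 75th percentile of their log2 change ran from -0.024 to -0.011. The lists and genes named here were chosen after their values were seen, and no list was tested against the rest. Of 13 glycolysis genes 7 had replicates differing by more than 0.2 on the log2 scale in both groups, and all 7 were higher in replicate 1 labelled Sc and replicate 2 labelled Kd, as Psph and Shmt1 were. Among them, Eno1 had 2492 and 1861 FPKM in the libraries labelled Sc and 1810 and 2478 in those labelled Kd, and Pkm had 764 and 560 against 543 and 761. Of 15 proliferation genes 6 had the same pattern, including Top2a (37.0 and 20.5 against 20.5 and 35.4 FPKM) and Mcm5 (211 and 149 against 147 and 207). Of 19 amino acid synthesis and ATF4 genes 7 were crossed, 6 of them the other way, such as Nupr1 (131 and 214 against 206 and 131 FPKM) and Slc7a5 (6.67 and 10.1 against 9.91 and 6.58). The other connected lists held 1 to 3 crossed genes each, such as 1 of 13 in purine synthesis and 1 of 11 in the methionine cycle and polyamines. Over all tested genes 623 were higher in replicate 1 labelled Sc and replicate 2 labelled Kd, and 1167 in the other 2 libraries.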
